A study of Eohaustorius estuarius with 16 samples.

Results

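Transcripts of 218 contigs were at least 4-fold below their usual signal in both whole-body samples numbered 2, one from amphipods kept with cyfluthrin and one from solvent controls. They were chosen by that drop, out of 7034 contigs with a usable signal and 8507 with a probe on the array. For each contig the normalised signal is the log2 processed intensity, averaged over its spots, minus the 75th percentile of the same array. Its deviation is that signal minus the contig's median over all 16 arrays. A contig was kept where at least 50% of its spots were well above background on 8 or more arrays, and chosen where its deviation was -2 or lower in both cyfluthrin 2 and control 2. No contig with such a drop was lost to the background filter.

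Eohaustorius estuarius is a burrowing amphipod of estuarine sand. The 8 cyfluthrin samples came from animals exposed over 10 days through sediment dosed to a nominal 1.6 micrograms of cyfluthrin per kg, and the 8 control samples from animals held as long in solvent-spiked sediment. Each sample was total RNA of whole bodies, processed by the laboratory labelled B, and took 1 array in 1 colour. How many animals made up a sample, and their sex or stage, are not given in the labels. p-values therefore reflect variation among these samples only, and that variation may be technical in part.

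Cyfluthrin is a pyrethroid, an insecticide class that keeps voltage-gated sodium channels in nerve cells open. Whole-body RNA mixes all tissues, so a transcript made in one organ is measured diluted by all the others. Sets of transcripts tied to one organ or stage, such as those of gonad, moulting cuticle or digestive gland in crustaceans, can therefore move together between samples. Fewer cells of a type and less RNA per cell cannot be told apart in such data. The files pair no probe with a gene name and hold no probe sequence, so the 218 are known here by contig only, and no role can be given to any of them.

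Both slides held arrays of both groups, with numbers 1 to 4 on slide 1 and 5 to 8 on slide 2. All cyfluthrin arrays of a slide lay in one row and all controls in the other. Same-numbered arrays lay in the same column of the same slide, so cyfluthrin 2 and control 2 were both in column 2 of slide 1. What goes with the number and what goes with that position cannot be told apart. The 75th percentile of processed intensity lay between 485 and 1011 on the 14 arrays outside number 2, and was 986 on cyfluthrin 2 and 421 on control 2, the lowest of all 16. Between 76.0% and 86.2% of probes were well above background on the 14 arrays, against 85.1% on cyfluthrin 2 and 81.0% on control 2. The fitted slope of log signal on log concentration for the spike-in RNAs, per the file headers, was 0.734 to 1.03 on the 14 arrays. It was 0.726 on cyfluthrin 2, the lowest of all, and 0.769 on control 2. Whether brightness or labelling had a part in the low signals was not tested.

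The drop was large in both samples, and its order between them depended on how the background was treated. The median deviation of the 218 was -3.44 in cyfluthrin 2, a level 10.8-fold below the contigs' own medians (10th to 90th percentile -4.44 to -2.5). In control 2 it was -4.56, or 23.6-fold below (10th to 90th percentile -6.05 to -2.53). With the normexp background correction the medians were -2.44 in cyfluthrin 2 and -2.28 in control 2. These values chose the contigs and are given as a description, with no test. On the 14 other arrays the medians of the same contigs lay between -0.70 and 1.58. In 211 of the 218, both number 2 arrays were below all 14 others.

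**Figure D1:**
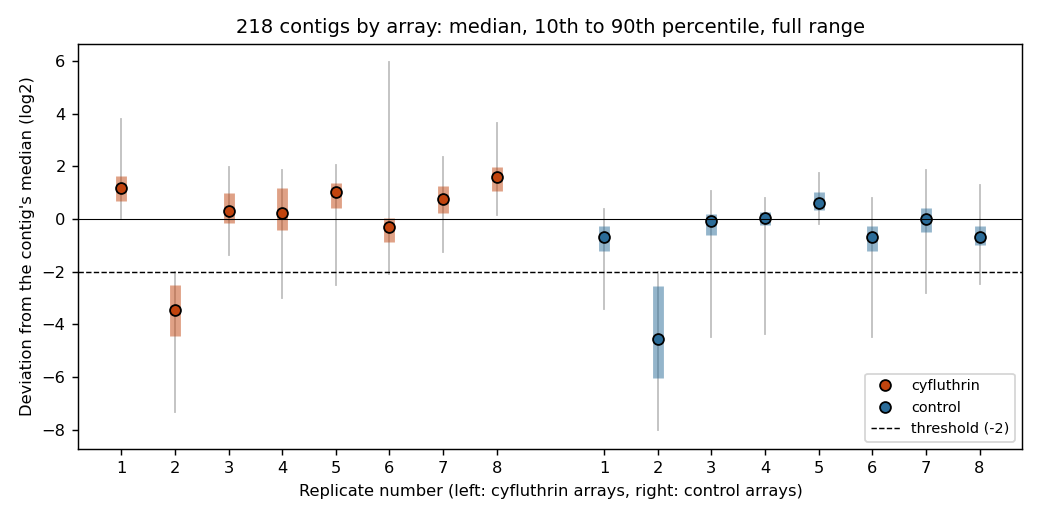
Deviation of the 218 contigs from their own medians (log2), by array, with cyfluthrin arrays on the left and controls on the right. Points are medians, thick bars the 10th to 90th percentile and thin lines the full range. Both number 2 arrays lie below the dashed threshold of -2 by the choice of contigs, and the 14 other medians lie between -0.70 and 1.58.

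Signal was close to background for many of these contigs on the number 2 arrays. Of the 218, 170 were still well above background on cyfluthrin 2 and 108 on control 2, with 103 on both and 43 on neither. A deviation on an array where the contig was not well above background is only a bound. Restricted to contigs well above background on the array in question, the median deviation was -3.37 in cyfluthrin 2 and -4.59 in control 2. For the 119 of the 218 among the 2345 brightest kept contigs, the medians were -3.61 in cyfluthrin 2 and -5.17 in control 2. For the 31 of the 218 among the 2345 dimmest, they were -3.50 in cyfluthrin 2 and -2.67 in control 2.

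Relative to each array's own 75th percentile, the other contigs were not lower as a body on the number 2 arrays. A deviation of -2 or lower was seen in 256 kept contigs on cyfluthrin 2 and 252 on control 2, against 4 to 96 on the 14 other arrays. Without the 218, the counts were 38 on cyfluthrin 2 and 34 on control 2. The choice had taken out every contig that low on both arrays, so the 38 and 34 were lowered by it. The median deviation of the other kept contigs was 0.00 on cyfluthrin 2 and 0.22 on control 2, above the -0.22 to 0.04 of the 14 others. For the other numbers, the kept contigs that were that low in both same-numbered arrays were between 0 and 4.

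**Figure D2:**
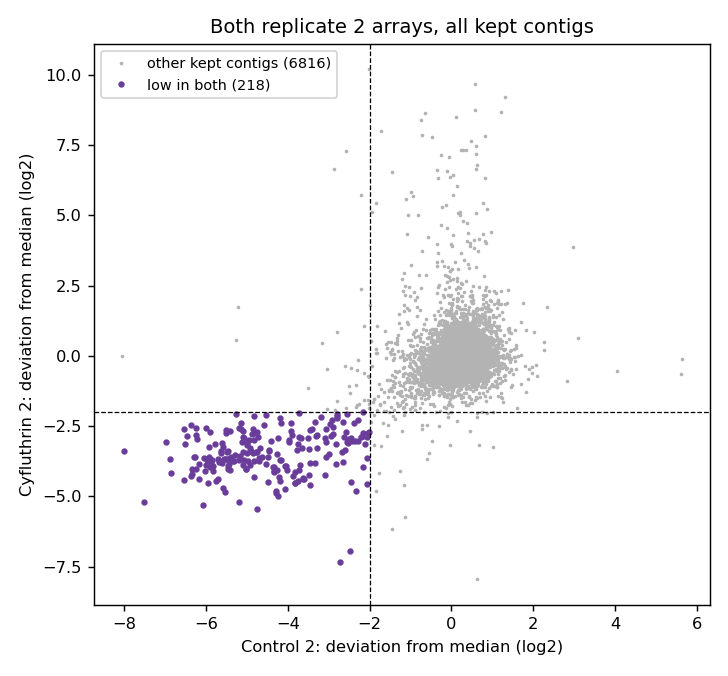
Deviation from the contig's median (log2) in cyfluthrin 2 (vertical axis) against control 2 (horizontal axis), 1 point per kept contig. The 218 chosen contigs (purple) fill the corner below both dashed thresholds and spread further along the control axis, and 38 and 34 other contigs (grey) are past the threshold in cyfluthrin 2 alone and control 2 alone.

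Next to the threshold the change was gradual. Contig 5332 was the closest inside it, with deviations of -2.01 in cyfluthrin 2 and -2.17 in control 2. Contig 39 was the closest outside, with -2.35 in cyfluthrin 2 and -1.96 in control 2. Contig 7267 had the median depth of the 218, with -4.27 in cyfluthrin 2 and -3.87 in control 2, not well above background on either array.

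The contigs with the deepest mean drop were 866, 3058, 3041 and 4504. Contig 3041 was the only one of these 4 well above background on all 16 arrays. Its normalised log2 signal was -2.13 in cyfluthrin 2 against 2.88 to 4.64 (median 3.85) in the 7 other cyfluthrin arrays, and -2.89 in control 2 against 2.22 to 3.61 (median 3.14) in the 7 other controls. In processed intensity it stood at 226 on cyfluthrin 2 and 56.7 on control 2, where the 14 other arrays ran between 2750 and 20460. Each number 2 array thus lay far below a group of 7 arrays that were themselves within 2 log2 units of each other. Contig 3058 had the lowest deviation on control 2, where it was not well above background. Its signal was -0.95 in cyfluthrin 2 and -5.59 in control 2. The 7 other arrays of each group held 1.82 to 4.60 (median 2.99) with cyfluthrin and 1.32 to 3.02 (median 2.22) in controls. Contigs 866 and 4504 showed the same order, at -4.48 and -4.03 in cyfluthrin 2 and at -6.78 and -6.73 in control 2, and neither was well above background on control 2.

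Bright transcripts were included. By mean normalised signal over the 14 other arrays, 119 of the 218 (54.6%) were among the 2345 brightest kept contigs, 68 among the 2344 in the middle and 31 among the 2345 dimmest. The median over the 218 was -0.09, against -1.48 over all kept contigs, on the log2 scale. Signal also depends on the probe, so this ranks brightness and not copies of a transcript. The rule itself disfavours dim contigs, which have little room to fall by 2 log2 units before they reach background.

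Contig 1789 was the brightest. Its signal was 1.94 in cyfluthrin 2 and 0.46 in control 2, against 4.64 to 6.44 (median 6.12) in the 7 other cyfluthrin arrays and 4.59 to 6.30 (median 5.45) in the 7 other controls. Contigs 3402, 5650 and 1461, next in brightness, had deviations of -3.93, -3.73 and -3.62 in cyfluthrin 2 and of -5.83, -5.66 and -4.71 in control 2. All 4 were well above background on all 16 arrays. Contig 1789 was saturated on cyfluthrin 5 and cyfluthrin 8, where its signal is only a lower bound, and no other contig of the 218 had a saturated spot. Together the 218 made up 0.300% of the summed processed intensity of all kept contigs on cyfluthrin 2 and 0.126% on control 2. Their share was 3.22% to 10.5% (median 6.46%) on the 7 other cyfluthrin arrays and 2.09% to 5.81% (median 3.46%) on the 7 other controls. On both number 2 arrays the share was thus below that of all 14 other arrays.

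Most repeated spots were low together. The 218 contigs had 503 spots, of which 489 (97.2%) were at -2 or lower on both number 2 arrays. Of the 178 contigs with 2 or more spots, 167 had every spot that low on both. Since the contigs were chosen on the mean of their spots, this is a description of evenness. Contigs of the 218 with 2 spots had a median absolute log2 difference between them of 0.122 in cyfluthrin 2 and 0.218 in control 2. Over all kept contigs with 2 spots it was 0.075 and 0.087. On the 14 other arrays it was 0.068 for the 218 and 0.084 for all kept contigs, so their spots agreed less well on the number 2 arrays. Contigs with 10 or 11 spots, spread over the array by its design, were 12 of the 218 (5.50%), against 42 of all 7034 kept contigs (0.597%). Among their 131 spots, 125 were at -2 or lower on both arrays, and the median SD over the spots of a contig was 0.14 log2 units on cyfluthrin 2 and 0.30 on control 2.

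Position on the array set the 218 little apart from all kept contigs. The upper rows of the array held 49.9% of their spots, against 50.2% for all kept contigs, and the left columns 47.7%, against 49.9%. Outlier marks were few but more frequent among the 218: of their 503 spots, 3 were marked on cyfluthrin 2 and 2 on control 2. Of the 12601 spots of all kept contigs, 7 were marked on each of these arrays. Local background around their spots had a median of 51.5 on cyfluthrin 2 and 48.0 on control 2, against 52.0 and 49.0 around the spots of all kept contigs. Contig numbers ran from 181 to 8491. Probe names carry a design code: 42.2% of the 218 bore PI425439775, against 29.2% of all kept contigs, and 28.4% bore PI425439380, against 42.9%. The labels do not say what the codes stand for.

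The same contigs also moved together on the 14 arrays that were not held to the threshold. These arrays entered the choice only through each contig's median and the background filter. With group means removed, the median correlation between any 2 of the 218 over these arrays was 0.77, against 0.03 for any 2 kept contigs, and 97.4% of their pairs were positive, against 52.8%. Each contig correlated with the median profile of the others at a median of 0.89. These correlations describe the contigs across the same 14 arrays and are not independent of one another. The spread was also wide: the SD within groups had a median of 0.65 log2 units over the 218 and 0.38 over all kept contigs.

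The order of the arrays is given as values without a test. Among the 7 other cyfluthrin arrays, the median deviation was highest in number 8 (1.58), followed by number 1 (1.17), number 5 (1.02), number 7 (0.75), number 3 (0.32), number 4 (0.22) and number 6 (-0.32). Among the 7 other controls it was highest in number 5 (0.60), then number 4 (0.03), number 7 (-0.02), number 3 (-0.07), number 6 (-0.68), number 1 (-0.69) and number 8 (-0.70). Neighbours such as cyfluthrin 3 and 4, or controls 6, 1 and 8, lay closer to each other than the spread of the contigs within one array. The groups overlapped, since cyfluthrin 6 was below controls 3, 4, 5 and 7.

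Contig 2421 followed the shared profile closely and with the smallest spread across arrays. It had the lowest SD within groups among the 218 (0.41) and a correlation of 0.97 with the median profile. Its signal was -0.32 in cyfluthrin 2 and -2.75 in control 2, against 2.25 to 3.71 (median 3.12) in the other cyfluthrin arrays and 1.68 to 2.70 (median 2.31) in the other controls. Contig 1358, next lowest in SD at 0.42, was among the dimmest and was well above background on 10 of 16 arrays.

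The profile of the 14 arrays also marked contigs that were not chosen. A correlation above 0.9 with the median profile was found for 100 of the 218 (45.9%) and for 29 of the other kept contigs (0.425%). Members made up 77.5% of the 129 contigs above that value. All 29 others were below their own medians on both number 2 arrays, with a median deviation of -1.22 in cyfluthrin 2 (range -3.45 to -0.37) and of -0.89 in control 2 (range -3.03 to -0.14). Over all other kept contigs, 50.6% were below their medians on cyfluthrin 2 and 29.0% on control 2. Of the 29, 6 passed the threshold of -2 in 1 of the 2 arrays, and 23 in neither. Their smaller drop follows in part from the choice, since contigs at -2 or lower on both arrays had been taken out, and the value of 0.9 was set after the data were seen.

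A few contigs followed another course. Of the 218, 204 were at -2 or lower on no array besides number 2, and 14 on at least 1 more. Among these 14 were 6 contigs that were that low on 3 or more of the other arrays, namely 1411, 393, 253, 4132, 1058 and 2736, a group formed after their values were seen. Their correlation with the median profile of the 218 lay between -0.05 and 0.26, while any 2 of the 6 correlated at 0.78 or higher over the 14 arrays. They were high in cyfluthrin 6 (median deviation 3.41), cyfluthrin 1 (2.11) and cyfluthrin 8 (2.01), and low in controls 3 (-3.81), 1 (-3.10), 4 (-2.44) and 6 (-2.36). Contig 393 had the lowest signal of all 16 arrays in cyfluthrin 2, at -6.43, against -1.37 to 4.60 (median 2.24) in the other cyfluthrin arrays, and was not well above background there. In control 2, at -1.83, it lay inside the -3.19 to 2.03 (median -1.21) of the other controls. For these 6 contigs, control 2 was thus one low control among several.

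Contigs 4132 and 1058 had the highest SD within groups of the 218, at 2.95 and 1.97. Contigs 393 and 1058 were well above background on control 2 and not on cyfluthrin 2, and contigs 3058 and 2714 the other way round. Their differences between the number 2 arrays, the most extreme among the 218, are therefore bounds and are not given as values.

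The arrays outside number 2 allowed a comparison between exposed and control amphipods. Only the number 2 arrays were held to the threshold. The other arrays still entered the choice, through each contig's median and the background filter. The comparison is therefore not fully independent of the choice, though the difference between the groups was no part of it. The comparison asked whether the 218 differed in abundance with exposure once the number 2 samples were left out. Of the 218, 215 had a higher mean in the 7 cyfluthrin arrays than in the 7 controls, and 47 (21.6%) rose, that is, passed an adjusted p of 0.05 (limma, two-sided, Benjamini-Hochberg over all 7034 kept contigs). None of the 218 fell. Over all kept contigs 2.69% rose and 3.23% fell. The median difference was 0.93 log2 units (1.91-fold) over the 218, against -0.05 over all kept contigs. Because the 218 move together from array to array, their count is not a count of independent events. The median of their deviations averaged 0.68 ± 0.65 over the cyfluthrin arrays and -0.22 ± 0.49 over the controls (SD, n = 7 each).

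**Figure D3:**
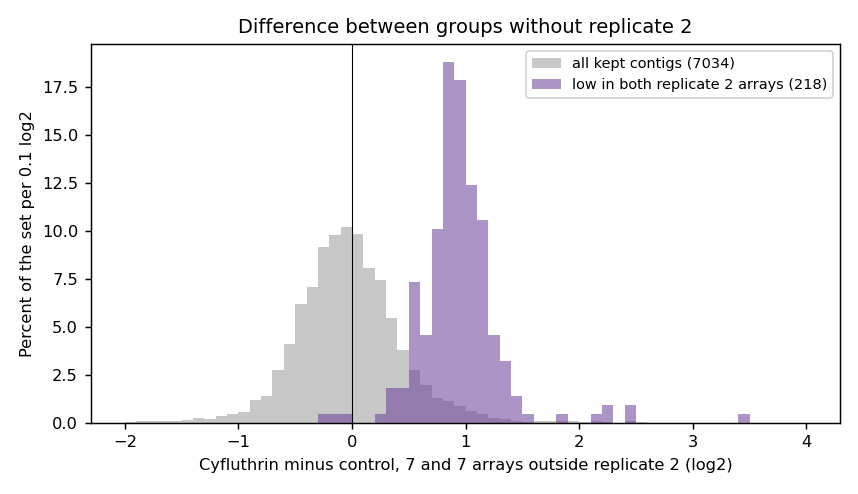
Difference cyfluthrin minus control over the 7 and 7 arrays outside number 2 (log2), as the percent of contigs per step of 0.1, for the 218 contigs (purple) and for all 7034 kept contigs (grey). The purple set centres on 0.93 and the grey on -0.05; 50 kept contigs lie outside the plotted range.

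The smallest p among the 218 was that of contig 1155. Its signal was -0.23 to 1.01 (median 0.53) in the 7 cyfluthrin arrays and -1.30 to -0.19 (median -0.96) in the 7 controls, and the groups overlapped by 1 array on each side. It rose 2.45-fold, a log2 difference of 1.29 ± 0.23 (SE; 95% interval 0.81 to 1.78; limma adjusted p = 0.00765). On the number 2 arrays it was at -2.69 in cyfluthrin 2 and -3.69 in control 2. Contig 2983 rose 2.56-fold, with -0.76 to 0.81 (median 0.38) in cyfluthrin arrays and -1.71 to -0.38 (median -1.10) in controls (log2 difference 1.36 ± 0.25 SE; limma adjusted p = 0.00824). Both differences had nearly the same size on slide 1 and slide 2, at 1.17 and 1.39 for contig 1155 and at 1.29 and 1.40 for contig 2983. In no contig of the 218 did all 7 cyfluthrin arrays lie above all 7 controls, or all below, orders found in 0.554% and 1.08% of kept contigs.

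Other contigs named above also rose. The log2 difference was 0.96 (limma adjusted p = 0.0463) for contig 3041, 0.97 (0.0464) for contig 5332, 0.85 (0.0367) for contig 2421 and 1.16 (0.0464) for contig 2714. These 4 stood close to the threshold, and the calls were lost in 18, 18, 15 and 17 of 27 alternatives for contigs 3041, 5332, 2421 and 2714. The 4 brightest contigs did not pass, with log2 differences of 0.50 for contig 1789, 0.85 for 3402, 0.62 for 5650 and 0.95 for 1461 (limma adjusted p from 0.0525 to 0.277). Contig 2337, the one with the smallest p among the 3 that were lower with cyfluthrin, differed by -0.26 (95% interval -1.41 to 0.89; limma adjusted p = 0.789). The 6 contigs of the other course differed by 2.16 to 3.42 log2 units, more than any contig that passed, but with a spread that kept all 6 above the threshold (lowest limma adjusted p = 0.0711).

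**Figure D4:**
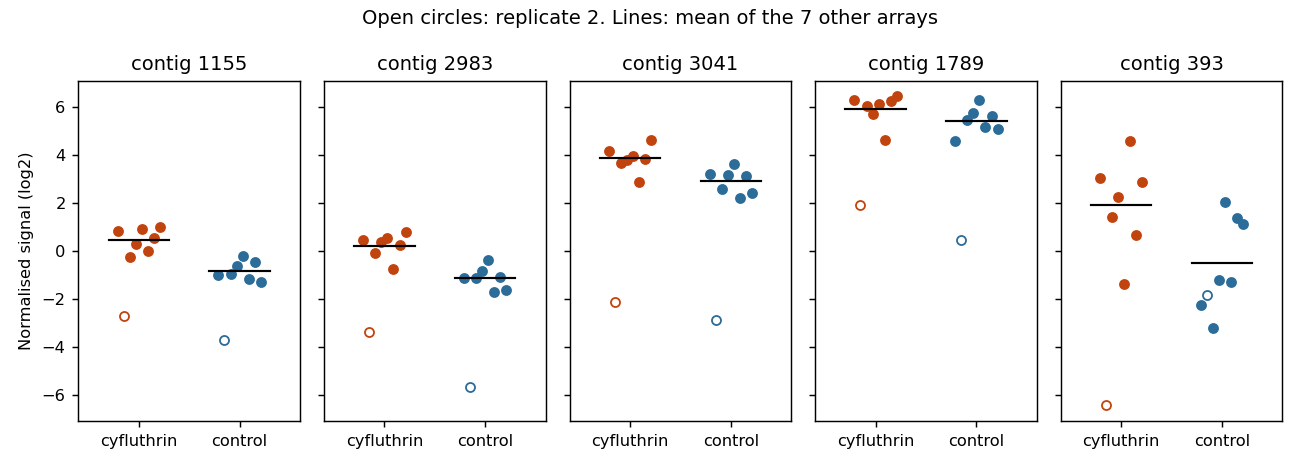
Normalised log2 signal of 5 named contigs in each array, cyfluthrin left and control right in each panel. Open circles are the number 2 arrays, filled circles the 7 other arrays of the group and lines their mean; contigs 1155 and 2983 have the smallest p, 3041 one of the deepest drops, 1789 the brightest signal and 393 the other course.

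How many of the 218 passed depended on single arrays and on the model. It grew to 132 when cyfluthrin 6 was left out (5.42% of all kept contigs rose) and to 82 when control 5 was (3.65%). It moved by less than 1.5 times without cyfluthrin 3 (39) or cyfluthrin 4 (54), and shrank by more when any of the 10 other arrays was left out. Among exposed samples, leaving out cyfluthrin 7 gave 13 (1.29% of all kept contigs), cyfluthrin 8 gave 12 (1.46%), cyfluthrin 1 gave 10 (1.01%) and cyfluthrin 5 gave 7 (0.924%). Among controls, leaving out control 4 gave 23 (1.41%), control 1 gave 14 (1.44%), control 3 gave 14 (1.36%), control 7 gave 11 (0.910%), control 8 gave 8 (0.825%) and control 6 gave 5 (0.611%). The median difference over the 218 stayed between 0.78 and 1.1 in these fits. With all 16 arrays and no block, 0 rose by limma, against 1.52% of all kept contigs. In that fit 7 of the 218 had a limma unadjusted p under 0.05, against 1647 of all 7034. The number 2 arrays then enter the spread of both groups. With the slide as a block, 43 rose, 41 of them among the 47, against 2.94% of all kept contigs. On slide 1 alone 7 rose (0.469% of all kept contigs), 0 of them among the 47 and 6 of the other course. On slide 2 alone 0 rose by limma, against 0.128% of all kept contigs. There 75 of the 218 had a limma unadjusted p under 0.05, against 1755 of all 7034. The median difference was 0.86 on slide 1 and 0.95 on slide 2, and 212 of the 218 (97.2%) were higher with cyfluthrin on both slides, against 30.9% of all kept contigs. Cyfluthrin arrays lay in row 1 of slide 1 and in row 2 of slide 2, with the controls in the other row. Within a slide, group and row cannot be told apart, and whether the row had a part in the difference was not tested. A difference in response between slides passed the threshold by limma in 0 of the 218 and in 0 of all 7034 kept contigs. A limma unadjusted p under 0.05 for it was found in 3 of the 218, against 769 of all kept contigs.

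Array brightness is given by slide and group, as values without a test. The log2 75th percentile averaged 9.17 ± 0.22 over the 3 cyfluthrin arrays and 9.31 ± 0.12 over the 3 controls of slide 1 (SD). On slide 2 it averaged 9.54 ± 0.36 over the 4 cyfluthrin arrays and 9.12 ± 0.06 over the 4 controls (SD). Cyfluthrin 5 and cyfluthrin 2, the 2 brightest arrays at 9.98 and 9.95, had median deviations of 1.02 and -3.44. Whether brightness had a part in the drop or in the difference between the groups was not tested.

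Same-numbered arrays were also set against each other, cyfluthrin minus control, as values without a test. The median difference over the 218 was positive for all 8 numbers: 1.85 for number 1, 1.06 for number 2, 0.48 for number 3, 0.26 for number 4, 0.42 for number 5, 0.33 for number 6, 0.83 for number 7 and 2.25 for number 8. Over all kept contigs it lay between -0.21 and 0.13. Numbers 1 and 8 stood out, with 216 and 218 of the 218 contigs higher in the cyfluthrin array, whereas number 4 had 147. Outside number 2, all 7 differences were positive in 79 of the 218 (36.2%), against 5.63% of all kept contigs, and at least 6 of 7 in 152 (69.7%), against 15.8%. No contig had fewer than 2 positive differences of 7.

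**Figure D5:**
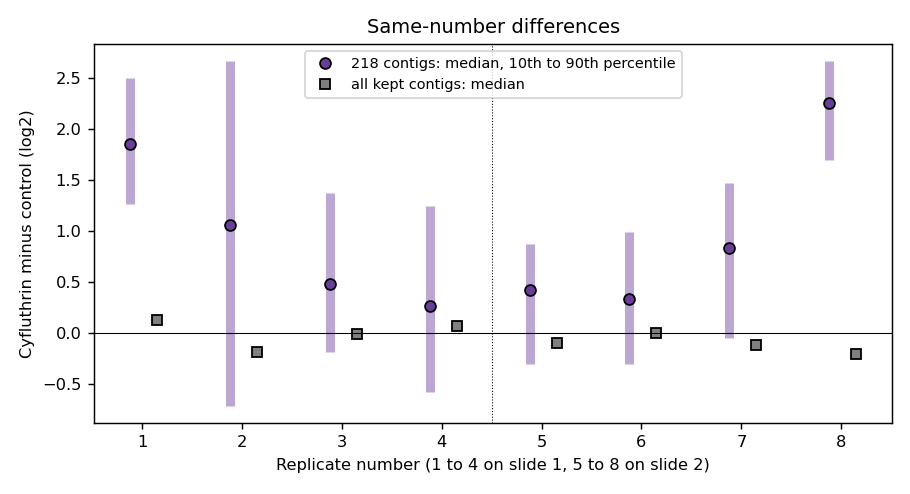
Difference cyfluthrin minus control between same-numbered arrays (log2), for numbers 1 to 8. Purple points and bars give the median and the 10th to 90th percentile of the 218 contigs, and grey squares the median of all kept contigs; all 8 purple medians are above 0, from 0.26 to 2.25.

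For number 2 the difference spread most widely between contigs. It was positive in 161 of the 218 contigs and negative in 57, with a 10th to 90th percentile of -0.71 to 2.66. In the 103 contigs well above background on both number 2 arrays, the median difference was 1.33, and 90 of them were higher in cyfluthrin 2. With the normexp background correction the median difference for number 2 over the 218 was -0.24, so its sign depends on how the background is treated.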

How the data were processed

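Cy3-labelled whole-body RNA of 8 cyfluthrin and 8 control samples was hybridised to a custom Agilent array. The deposited files give, per the file headers, the processed intensity of each spot from Feature Extraction 10.7.1.1 (9.1 in the submitters' processing notes), background-subtracted and detrended within the array, with no normalization between arrays. The authors' deposited table of log2 values had a median of 0 for 100% of probes and array medians from -0.095 to 0.14. Its columns correlated at 0.9895 or more with quantile-normalized, centred scanner values, which settles its scale, centring and direction. Its normalization stays unknown.

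Of 15744 spots per array, 536 control spots were left out. No 2 arrays held identical values (correlations 0.789 to 0.980). Groups and numbers came from the sample titles. Cyfluthrin and control were compared with limma 3.58.1 (R 4.3.3; lmFit and eBayes, all kept contigs, 14 arrays outside number 2), after a test on simulated arrays. Arrays have no read depth, and their number limits the precision. The contigs and comparisons were chosen with earlier results of these data known. Contigs named are those with the deepest drop, the brightest signal, the smallest p in each direction, the closest place to the threshold, the lowest and highest SD, the extreme differences between the number 2 arrays, and the median depth. Alternatives changed the normalization, background correction, filter, block, spots and arrays. The planned normexp correction used median spot signals (offset 50), as mean signals are not in the columns used here; this and leaving out outlier-marked spots were chosen after seeing the data. Figures were drawn with matplotlib 3.10.9.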

Additional observations from a re-analysis of the deposited data

Results flagged for a closer look

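In 46 groups of values looked at, 4 held an array whose gap to its nearest neighbour was large for the range of its group by Dixon's 95% criterion, where chance alone gives about 1 in 20 (2.3). Of these, 2 follow from the choice of contigs: the median deviation of the 218 was -3.44 in cyfluthrin 2 (next cyfluthrin array -0.32) and -4.56 in control 2 (next control -0.70). Contig 1789, the brightest of the 218, was low in cyfluthrin 6 at 4.64, against 5.71 in the next cyfluthrin array. Contig 39, just outside the threshold, was high in control 5 at -0.79, against -1.65 in the next control.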

How the results depend on the processing

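The number of chosen contigs stayed within 1.5 times of 218 under 10 of 12 alternatives. It was 122 with normexp on median signals, all of them among the 218, and 129 with a threshold of -3. With normexp the median deviation of the 218 was -2.44 in cyfluthrin 2 and -2.28 in control 2, and their median same-number difference for number 2 turned to -0.24; the cause was not tested. The other 7 same-number medians stayed positive under all 5 alternatives run, which were those of scaling, background and outlier marks. The median difference over the 14 arrays stayed between 0.78 and 1.1 under 27 alternatives, and no contig of the 218 fell under any. The count that rose, 47, moved by over 1.5 times under 18 of them: it was 0 with all 16 arrays, 30 with normexp (122 of all 7034), 19 with no filter (96 of all 8507), 7 on slide 1 alone, 0 on slide 2 alone, and 5 to 132 with 1 array left out. Among all kept contigs, 189 rose and 227 fell, against 277 and 129 when scaled to the array median and 262 and 196 with quantile normalization; among the 218, 53 and 49 rose in these fits. Same-numbered arrays share a number, a slide and a column of it, and the titles give no pairing beyond the number. The correlation of their deviations passed 0.1 in 4 of 8 pairs and was as low as -0.23. For number 2 it was 0.498, and 0.073 without the 218. With the replicate block, 17 rose on 14 arrays (84 of all 7034) and 57 on all 16 (173 of all 7034). The fit on all 16 includes the number 2 arrays, whose values chose the contigs, so the 57 is a description only. With this block on 14 arrays, the calls of contigs 3041, 5332, 2421 and 2714 were lost (limma adjusted p from 0.0511 to 0.0736). Contigs 1155 and 2983 stayed past the threshold in 24 of 27 alternatives each, and not with all 16 arrays or on 1 slide alone. Signal over background limits the depth of the drop, since 48 of the 218 were not well above background on cyfluthrin 2 and 110 on control 2.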
